A study of Rattus norvegicus with 6 samples.

Results

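The genes described here are 10 regulators of mitochondrial biogenesis and dynamics, chosen by symbol from the deposited expression table: the coactivators Ppargc1a and Ppargc1b, the nuclear receptors Ppara, Esrra and Esrrg, the mitochondrial DNA factor Tfam, the fusion proteins Mfn1, Mfn2 and Opa1, and the fission protein Dnm1l. All 10 were found, among 28293 genes in the table, and 8 of them passed the filter on low values (a mean of at least 0.5 FPKM over the 6 samples), as did 10942 genes in all. Esrra and Esrrg did not. RNA sequencing had been performed on myocardial tissue of 3 rats of the sham group and 3 rats of the MI/RI group (myocardial ischemia/reperfusion injury). All rats were male and labelled WT. In the MI/RI group the left anterior descending coronary artery was tied off for 30 min and reperfused for 6 h, and the labels give the sham rats the same times. The strain, the age and the region of the heart that was sampled are not given in the sources used here. Nor do they say whether these rats received the PBS vehicle that the study gave in its treatment experiment. The replicates are separate samples by their labels, and p-values measure the spread between these samples. The question put to the genes was whether their mRNA levels differed between the groups.

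Mitochondrial biogenesis is driven from the nucleus. PGC-1α and PGC-1β, encoded by Ppargc1a and Ppargc1b, bind no DNA by themselves and act by docking on receptors such as PPARα and the estrogen-related receptors, which switch on genes of fatty acid oxidation, the citric acid cycle and respiration. Tfam is then imported into mitochondria, where it packages mitochondrial DNA and starts its transcription. The mitochondrial network is shaped separately: mitofusins join outer membranes, Opa1 joins inner membranes and maintains cristae, and Drp1, encoded by Dnm1l, constricts the organelle for division. The heart, which relies on oxidative metabolism, is rich in mitochondria and uses this whole set.

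Values are FPKM (fragments divided by gene length and by library total), so levels of different genes can be set side by side. Where 3 values of a group are given, they follow the replicate numbers. Fold changes are differences of group means of log2(FPKM + 0.1), MI/RI minus sham, with the standard error (SE) and the adjusted p of limma over all genes tested. The fragments recovered from the values numbered 42131011 to 49759198 for sham rats and 36738854 to 39378139 for MI/RI rats. The groups also differed in their makeup. The 13 mRNAs encoded by mitochondrial DNA took 80.1% to 86.2% of the summed FPKM of sham rats and 61.8% to 71.5% of that of MI/RI rats. The summed level of 7 cardiomyocyte markers, none of them at 0, was 3465 to 11364 FPKM in sham rats and 23353 to 33681 FPKM in MI/RI rats. By the test 6 of the 7 (85.7%) were higher, against 25.5% of all genes tested. MI/RI replicate 1 had both the lowest mitochondrial share and the highest marker sum. Within the sham group, replicate 1 had the lowest mitochondrial share, 80.1%. Its marker sum was 11364 FPKM, against 3916 and 3465 FPKM in sham replicates 2 and 3. In RNA of whole tissue, fewer cells of a type and less RNA per cell cannot be told apart. The part of this makeup in the results was not tested.

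Of the 8 genes past the filter, 4 were higher in the MI/RI group and 0 were lower at an adjusted p under 0.05 (limma). The genes that rose were Ppargc1a, Opa1, Mfn2 and Tfam, directions that turned when the samples were centred on cardiomyocyte markers. Among all genes tested, 25.5% were called higher and 7.36% lower, so 32.9% were called in either direction. Of the 8, 4 had every MI/RI value above every sham value, as had 37.2% of all genes tested, and 0 had every MI/RI value below, against 13% of all genes. The counts of the 8 were not tested against this background. The median log2 fold change of the 8 was 0.53, beside 0.29 over all genes tested.

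**Figure D1:**
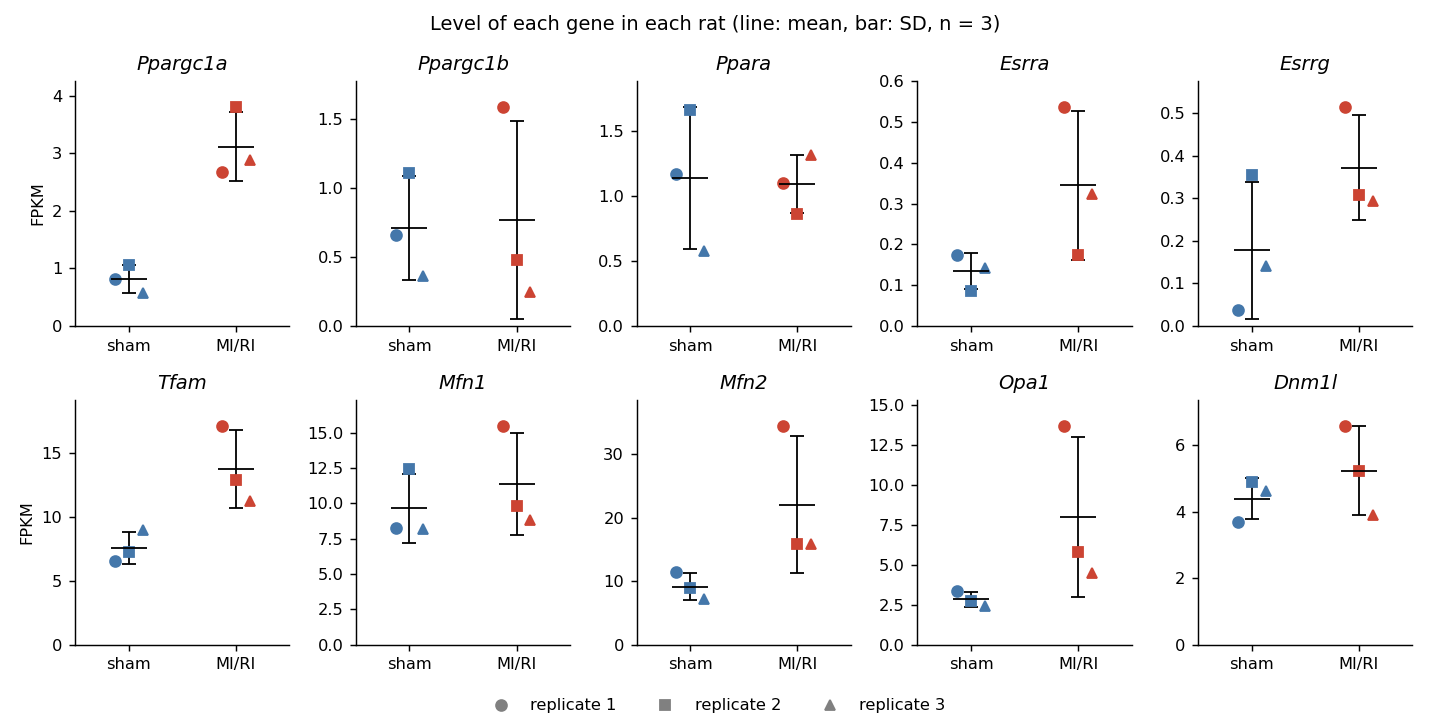
Level of each of the 10 genes in FPKM (vertical axis, own scale in each panel) in the 3 sham and 3 MI/RI rats, with a point for each rat, a line at the mean and a bar for the SD. In Ppargc1a, Tfam, Mfn2, Opa1 and Esrra the MI/RI points all lie above the sham points, and in the other genes the groups overlap.

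Ppargc1a (ENSRNOG00000004473), the inducible coactivator that answers to cold, exercise and fasting, had the largest fold change of the 8 genes past the filter. Its level was 0.813, 1.05 and 0.568 FPKM across the sham rats and 2.68, 3.80 and 2.88 FPKM across the MI/RI rats. All MI/RI rats lay well above all sham rats, and MI/RI replicate 2 was the highest. The group means were 0.812 ± 0.243 and 3.12 ± 0.599 FPKM (SD, n = 3 each), a ratio of 3.84. The log2 fold change was 1.84 (SE 0.28, 95% interval 1.22 to 2.46), with an adjusted p of 0.0032 by limma, and 4.89% of all genes tested had a larger one. The exact permutation test (two-sided) gave p = 0.1, the smallest that 3 against 3 allows. The values rest on 88 to 170 fragments per sham sample and 319 to 485 per MI/RI sample.

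The promoter of Ppargc1a is shown because it is the one promoter of the set that holds the letters of a cAMP response element, the element through which CREB is known to switch this gene on. The window runs from 250 bases before the start to 50 bases after it, chr14:63634058-63634357 on the plus strand of GRCr8, from RefSeq. Capitals mark TGACGTCA, whose first base lies 181 bases before the start.
Ppargc1a: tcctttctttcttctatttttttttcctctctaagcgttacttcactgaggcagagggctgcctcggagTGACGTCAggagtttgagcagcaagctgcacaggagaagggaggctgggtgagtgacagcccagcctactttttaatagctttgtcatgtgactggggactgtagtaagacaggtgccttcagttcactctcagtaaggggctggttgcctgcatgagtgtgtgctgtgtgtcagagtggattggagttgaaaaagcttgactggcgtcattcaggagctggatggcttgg
These letters were found in 1.83% of 33469 rat promoters of the same length, with both strands searched, and in 1 of the 12 promoter windows that RefSeq's table holds for 9 of the 10 genes. The match is a description of the letters and not of a bound site.

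Ppargc1b (ENSRNOG00000017503), the paralog that is tied more to constant mitochondrial content, varied widely within groups. It was at 0.660, 1.11 and 0.361 FPKM across the sham rats and at 1.58, 0.475 and 0.244 FPKM across the MI/RI rats. MI/RI replicates 1 and 3 held the highest and the lowest value of all 6 rats, so the groups overlapped fully. The means were 0.709 ± 0.375 and 0.768 ± 0.716 FPKM (SD, n = 3 each). The log2 fold change of −0.11 (SE 0.58) did not pass the test (adjusted p = 0.90, limma), and its 95% interval, −1.42 to 1.19, leaves room for changes of more than 1 log2 unit either way.

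Within each rat, Ppargc1a stood at 1.23, 0.954 and 1.57 times the level of Ppargc1b across the sham rats and at 1.69, 7.99 and 11.8 times across the MI/RI rats. The ratio was thus near parity in every sham rat and spread widely in the MI/RI rats, with replicate 1 just above the sham range. Such a ratio of 2 FPKM values is not touched by how a sample was scaled. The log2 difference between the coactivators was taken of FPKM + 0.1, so scaling can touch it. It averaged 0.25 ± 0.30 in sham rats and 2.20 ± 1.29 in MI/RI rats (SD, n = 3 each, not tested).

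Of the nuclear receptors, none passed the test. Ppara (ENSRNOG00000021463), the receptor for fatty acids, was at 1.17, 1.67 and 0.578 FPKM across the sham rats and at 1.10, 0.865 and 1.32 FPKM across the MI/RI rats. The MI/RI rats all lay inside the sham range. The means were 1.14 ± 0.546 and 1.09 ± 0.226 FPKM (SD, n = 3 each), and the log2 fold change was 0.04 (SE 0.37, adjusted p = 0.95, limma) with a 95% interval of −0.79 to 0.86.

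The estrogen-related receptors were the least abundant of the 10 genes, and both lay under the filter. Esrra (ENSRNOG00000021139), which PGC-1α is known to raise and to work through, was at 0.173, 0.0862 and 0.143 FPKM across the sham rats and at 0.536, 0.174 and 0.323 FPKM across the MI/RI rats. Every MI/RI value was above every sham value, but MI/RI replicate 2 cleared sham replicate 1 only by 0.174 against 0.173 FPKM. These levels are 10 to 17 fragments per sham sample and 16 to 46 per MI/RI sample, and the exact 95% Poisson intervals of MI/RI replicate 2 and sham replicate 1, 0.0995 to 0.283 and 0.101 to 0.277 FPKM, overlap. A fit without the filter gave a log2 fold change of 0.86 (SE 0.38, adjusted p = 0.17, limma), and the exact permutation p was 0.1. The MI/RI rats also differed among themselves beyond counting error, since the interval of replicate 1 was 0.393 to 0.715 FPKM.

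Esrrg (ENSRNOG00000002593), a receptor of oxidative muscle that is active without a ligand, was at 0.0380, 0.354 and 0.141 FPKM across the sham rats and at 0.514, 0.309 and 0.293 FPKM across the MI/RI rats. Sham replicate 2 exceeded 2 of the MI/RI rats, while sham replicate 1 rested on 5 fragments. The fit without the filter gave 0.90 (SE 0.47, adjusted p = 0.25, limma). The proportion of the 2 receptors varied widely among the sham rats. The log2 difference of Esrra and Esrrg, of FPKM + 0.1, averaged −0.10 ± 1.14 in sham rats and −0.14 ± 0.38 in MI/RI rats (SD, n = 3 each). The groups overlapped.

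Tfam (ENSRNOG00000000613), which packages mitochondrial DNA and starts its transcription, rose. It was at 6.55, 7.24 and 8.94 FPKM across the sham rats and at 17.2, 12.9 and 11.2 FPKM across the MI/RI rats. The groups did not overlap, though the lowest MI/RI rat was close to the highest sham rat. The means were 7.58 ± 1.23 and 13.8 ± 3.05 FPKM (SD, n = 3 each), and the log2 fold change was 0.84 (SE 0.24, 95% interval 0.30 to 1.39, adjusted p = 0.026, limma). Its call was lost in more alternatives than those of Ppargc1a, Mfn2 and Opa1. Leaving out sham replicate 1, sham replicate 2, MI/RI replicate 1 or MI/RI replicate 2 took its adjusted p to 0.060, 0.077, 0.066 and 0.060 (limma). With values rescaled without the mitochondrially encoded mRNAs its fold change was 0.06 (adjusted p = 0.87, limma).

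The promoters of Tfam and Mfn1 are shown together because they hold the same letters, CCGGAAG, the core that ETS factors such as GABP (NRF-2) bind, and GABP is a known regulator of Tfam. Both windows are 250 bases before to 50 bases after the start on the plus strand of GRCr8, from RefSeq, with the match in capitals: chr20:17355123-17355422 for Tfam, first matching base 56 before the start, and chr2:117241508-117241807 for Mfn1, first matching base 32 before it.
Tfam: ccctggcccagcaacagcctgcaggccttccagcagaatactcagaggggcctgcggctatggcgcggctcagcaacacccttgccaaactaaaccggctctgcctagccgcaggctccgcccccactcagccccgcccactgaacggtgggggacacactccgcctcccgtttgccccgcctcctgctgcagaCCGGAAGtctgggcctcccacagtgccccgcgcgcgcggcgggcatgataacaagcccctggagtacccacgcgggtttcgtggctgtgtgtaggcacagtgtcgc
Mfn1: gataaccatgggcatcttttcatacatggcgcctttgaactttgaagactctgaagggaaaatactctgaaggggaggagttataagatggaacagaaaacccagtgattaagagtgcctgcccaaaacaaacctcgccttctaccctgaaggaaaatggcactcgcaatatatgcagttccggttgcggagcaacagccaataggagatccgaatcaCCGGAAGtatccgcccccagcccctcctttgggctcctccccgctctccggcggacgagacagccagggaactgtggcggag
CCGGAAG was found in 8.75% of all 33469 promoters, with both strands searched. Of the genes with the match, Tfam passed the test and Mfn1 did not, and the difference between them was not tested. The letters CGCNTGCGC, read by NRF1, were found in Esrra, Opa1 and Ppara (5.80% of all promoters). Neither AAGGTCA, the half-site of the estrogen-related receptors (4.61%), nor the E-box CACGTG (6.42%) was in any of the 12 windows of the 9 genes, of which Esrrg has 4. The promoter of Mfn2 was not analysed here.

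The transcripts that Tfam serves had lower values in the MI/RI group. The 13 mitochondrially encoded mRNAs all had log2 fold changes under 0, with a median of −0.52. Of these, 2 (15.4%) fell by the test, Mt-nd3 (fold change −1.03, SE 0.29, adjusted p = 0.024, limma) and Mt-nd6 (−1.0, SE 0.32, adjusted p = 0.037, limma), both subunits of complex I. In 11, every MI/RI value lay below every sham value. Among all genes tested, 7.36% were called lower and 13% had every MI/RI value below. After median centring or quantile normalization, 0 of the 13 were called in either direction. With values rescaled without these mRNAs, 8 of the 13 were called lower, as were 2857 of all 10942 genes. The summed level of the 13 was 721684 to 800435 FPKM in sham rats and 451854 to 589214 FPKM in MI/RI rats. In each rat the log2 level of Tfam minus the mean of these mRNAs was −12.34, −12.29 and −12.01 across the sham rats and −10.12, −11.00 and −11.17 across the MI/RI rats. The difference was 1.45 log2 units smaller in the MI/RI group, with no overlap. The fold change of Tfam with values rescaled without these mRNAs, 0.06, is given with its test above.

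Among the fusion genes, Mfn2 and Opa1 passed the test and Mfn1 did not. Mfn2 (ENSRNOG00000046424), which also tethers mitochondria to the endoplasmic reticulum, was at 11.4, 8.94 and 7.12 FPKM across the sham rats and at 34.5, 15.8 and 15.8 FPKM across the MI/RI rats. All MI/RI rats were above all sham rats, with replicate 1 at over 2 times the level of the other two. The means were 9.14 ± 2.13 and 22.0 ± 10.8 FPKM (SD, n = 3 each). Mfn2 rose by 1.18 on the log2 scale (SE 0.34, 95% interval 0.43 to 1.93, adjusted p = 0.024, limma). The ratio of the means was 2.41, and 1.73 without MI/RI replicate 1, where the call just held (0.81, adjusted p = 0.0496, limma). The call was lost without sham replicate 2 (adjusted p = 0.077) or sham replicate 3 (0.086).

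Mfn1 (ENSRNOG00000011057), the mitofusin with the stronger tethering and GTPase activity, was at 8.28, 12.4 and 8.22 FPKM across the sham rats and at 15.5, 9.85 and 8.81 FPKM across the MI/RI rats. Sham replicate 2 exceeded 2 of the MI/RI rats. The means were 9.64 ± 2.41 and 11.4 ± 3.60 FPKM (SD, n = 3 each), and the log2 fold change of 0.22 (SE 0.28, 95% interval −0.41 to 0.85) did not pass the test (adjusted p = 0.58, limma). Without MI/RI replicate 1 it was −0.02.

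Measured against each other, Mfn2 stood at 1.37, 0.719 and 0.867 times the level of Mfn1 across the sham rats and at 2.22, 1.60 and 1.79 times across the MI/RI rats. The mitofusins were about equal in the sham group, with a ratio of 0.986 ± 0.343, and Mfn2 led in every MI/RI rat, with a ratio of 1.87 ± 0.318 (SD, n = 3 each, not tested). MI/RI replicate 1, which was far above the other MI/RI rats in Mfn2 itself, stood less far from the other MI/RI rats in this ratio.

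Opa1 (ENSRNOG00000001717), the dynamin of the inner membrane, was at 3.35, 2.71 and 2.40 FPKM across the sham rats and at 13.7, 5.77 and 4.48 FPKM across the MI/RI rats. No MI/RI rat fell into the sham range, and replicate 1 was again far above the rest. The means were 2.82 ± 0.483 and 7.98 ± 4.99 FPKM (SD, n = 3 each). Opa1 rose by 1.31 on the log2 scale (SE 0.38, 95% interval 0.47 to 2.15, adjusted p = 0.025, limma). The ratio of the means was 2.83, and 1.82 without MI/RI replicate 1 (fold change 0.84, adjusted p = 0.041, limma). As for Mfn2, the call was lost without sham replicate 2 (0.082) or sham replicate 3 (0.080).

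Dnm1l (ENSRNOG00000001813), the fission GTPase, was at 3.68, 4.88 and 4.61 FPKM across the sham rats and at 6.58, 5.22 and 3.90 FPKM across the MI/RI rats. The groups overlapped, since MI/RI replicate 3 was under 2 of the sham rats. The means were 4.39 ± 0.625 and 5.23 ± 1.34 FPKM (SD, n = 3 each), with a log2 fold change of 0.23 (SE 0.25, 95% interval −0.34 to 0.79, adjusted p = 0.51, limma). Opa1 was below Dnm1l in every sham rat, at 0.909, 0.556 and 0.521 times its level, and above it in every MI/RI rat, at 2.08, 1.10 and 1.15 times.

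**Figure D2:**
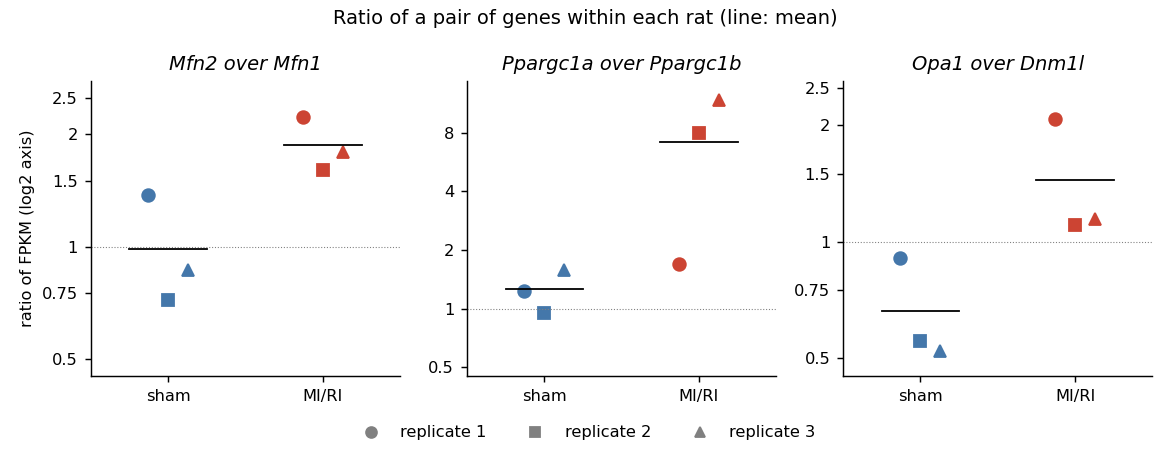
Ratio of FPKM of a pair of genes within each rat (vertical log2 axis), for Mfn2 over Mfn1, Ppargc1a over Ppargc1b and Opa1 over Dnm1l, with a point for each of 3 sham and 3 MI/RI rats and a line at the mean. In all 3 ratios the MI/RI rats lie above the sham rats, with Opa1 over Dnm1l passing from 0.521 to 0.909 in the sham group to 1.10 to 2.08 in the MI/RI group. Each drawn pair sets a gene called higher over a gene not called. The pair of Esrra and Esrrg, which is not drawn, overlapped between the groups. How often pairs of other genes are without overlap was not counted.

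**Figure D3:**
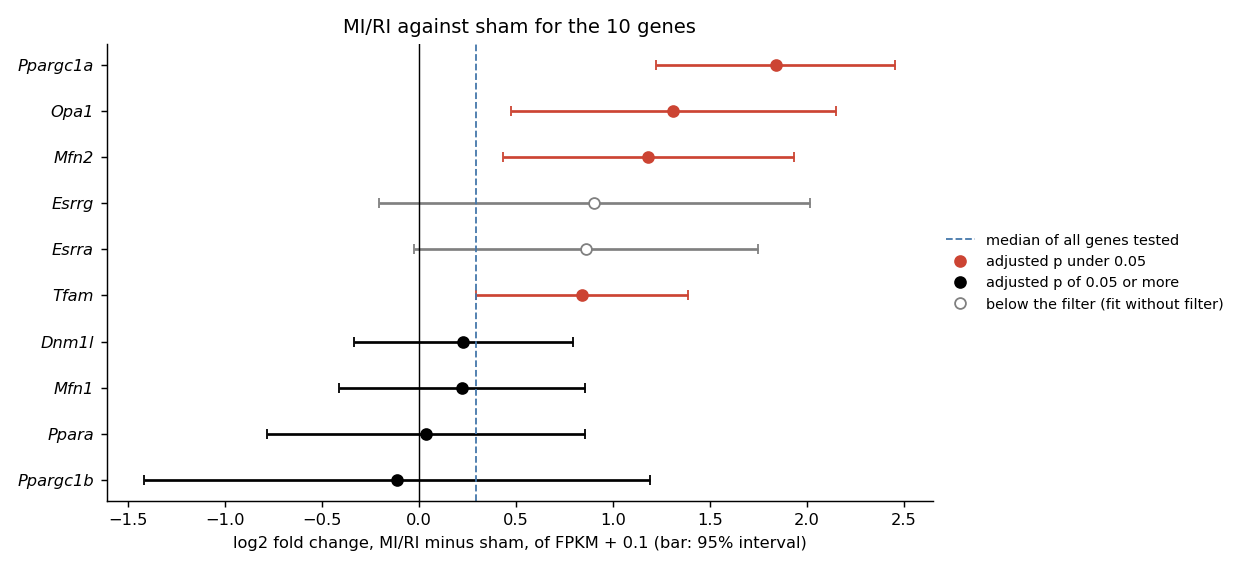
Log2 fold change of each of the 10 genes (horizontal axis, MI/RI minus sham, of FPKM + 0.1) with its 95% interval as a bar. Points are red where the adjusted p was under 0.05 and black where it was not. Open grey points mark Esrra and Esrrg, which did not pass the filter and come from the fit without it. The intervals of Ppargc1a, Opa1, Mfn2 and Tfam lie above 0 on this scale and those of the other genes cross it. Centred on cardiomyocyte markers, the fold changes of these 4 were under 0.

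Set in order, the levels of the 10 genes spanned a wide range. In the sham group the order from the top was Mfn1, Mfn2, Tfam, Dnm1l, Opa1, Ppara, Ppargc1a, Ppargc1b, Esrrg and Esrra, from 9.64 down to 0.134 FPKM. The values of Tfam and Dnm1l, of Dnm1l and Opa1, of Opa1 and Ppara, and of Ppargc1b and Esrrg did not overlap, while the other neighbours did. In the MI/RI group it was Mfn2, Tfam, Mfn1, Opa1, Dnm1l, Ppargc1a, Ppara, Ppargc1b, Esrrg and Esrra, from 22.0 down to 0.345 FPKM. There, the neighbours without overlap were Dnm1l and Ppargc1a, and Ppargc1a and Ppara. The values of Ppargc1a thus overlapped those of Ppara and Ppargc1b in the sham group. In the MI/RI group they overlapped neither those of Dnm1l nor those of Ppara. Differences between genes were not tested.

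Among the MI/RI rats, replicate 1 was the highest in Ppargc1b, Esrra, Esrrg, Tfam, Mfn1, Mfn2, Opa1 and Dnm1l. In Ppargc1a it was the lowest. Without it, 3 of the 8 genes past the filter were called higher, with Tfam lost (adjusted p = 0.066, limma). The fold change of Ppargc1a was 1.94 without it (adjusted p = 0.0086, limma).

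The scaling of the samples shifted every fold change. Rescaling without the mitochondrially encoded mRNAs moved the median of all genes from 0.29 to −0.46. It left Ppargc1a at 1.11 (adjusted p = 0.025, limma) and took Opa1 to 0.54 (adjusted p = 0.21), Mfn2 to 0.40 (adjusted p = 0.28) and Tfam to 0.06. Quantile normalization, which moved the median of all genes to −0.02, gave 1.72 for Ppargc1a (adjusted p = 0.0059, limma), 0.94 for Opa1 (adjusted p = 0.057), 0.49 for Mfn2 (adjusted p = 0.18) and 0.22 for Tfam (adjusted p = 0.49). Relative to the median of all genes, Ppargc1a lay higher by 1.55 as reported, 1.57 when rescaled and 1.74 after quantile normalization. Opa1 lay higher by 1.02, 1.01 and 0.96 in the same order, Mfn2 by 0.89, 0.86 and 0.52, and Tfam by 0.55, 0.53 and 0.24.

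Set against the cardiomyocyte markers, the direction was another. The mean log2 level of those markers differed by 2.30 between the groups, more than any of the 10 genes did. Relative to it, Ppargc1a was lower by 0.46 with overlapping groups (−0.46, adjusted p = 0.52, limma), and Opa1 (−0.99) and Esrrg (−1.39) overlapped as well. The others lay below every sham value, from −1.11 for Mfn2 and −1.44 for Esrra to −2.41 for Ppargc1b. Of the 8 genes past the filter, 6 were called lower on this scale, as were 8977 of all 10942 genes.

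**Figure D4:**
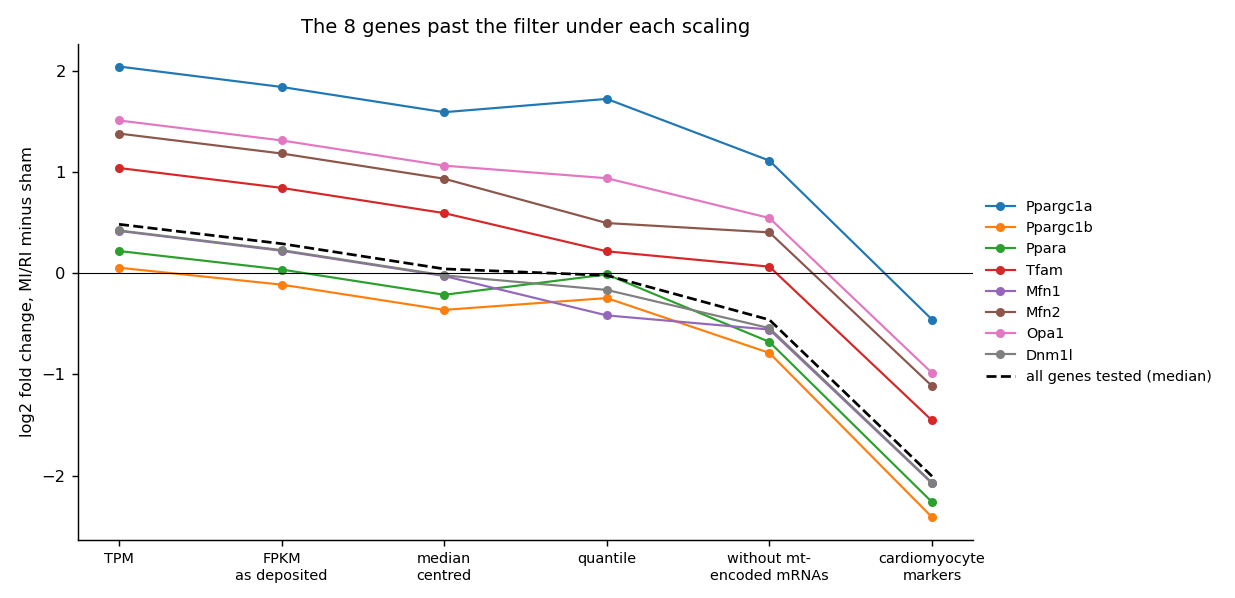
Log2 fold change of the 8 genes past the filter (vertical axis, MI/RI minus sham) under 6 scalings of the samples, with the median of all genes tested beside them. Ppargc1a is the highest line throughout, from 2.04 with TPM to −0.46 when centred on the cardiomyocyte markers, and the 8 genes shift up and down with the median of all genes.

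The partners and targets of these regulators were read from lists. Of 25 partners and modulators past the filter, 6 were higher and 0 lower, with a median log2 fold change of 0.35. The share called higher, 24.0%, was near the 25.5% of all genes tested, and the median was near the 0.29 of all genes. Perm1, a muscle partner of PGC-1 and the estrogen-related receptors, rose by 2.29 (SE 0.56, adjusted p = 0.014, limma), from 0.564, 2.43 and 2.04 FPKM across the sham rats to 16.2, 5.48 and 4.56 FPKM across the MI/RI rats. Ppard, the PPAR that is widely expressed, rose by 1.57 (SE 0.33, adjusted p = 0.0079, limma), and Pprc1, the third coactivator of the family, by 1.31 (SE 0.25, adjusted p = 0.0061, limma). The factors named for nuclear control of respiration did not pass, with fold changes of 0.42 for Nrf1 (adjusted p = 0.32, limma) and −0.07 for Gabpa (adjusted p = 0.84, limma).

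Most target genes read through the estrogen-related receptors were called. Of 16 target genes of the estrogen-related receptors and PGC-1, 15 (93.8%, against 25.5% of all genes tested) were higher and 0 lower, with a median of 2.14. Mb, the myoglobin gene, rose by 2.55 (SE 0.44, adjusted p = 0.0043, limma) and Mdh2, of the citric acid cycle, by 2.48 (SE 0.42, adjusted p = 0.0042, limma). The 1 target not called, Vegfa (named after its value was seen), had a fold change of −0.46 (adjusted p = 0.30, limma). Many of these targets are known to be abundant in cardiomyocytes, and their median lay near the 2.30 of the cardiomyocyte markers. The part of the makeup of the samples in the fold changes of these targets was not tested.

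Of 23 PPAR target genes past the filter, 12 (52.2%, against 25.5% of all genes tested) were higher and 1 lower, with a median of 1.15. Fabp3, the fatty acid carrier of heart muscle, was at 373, 191 and 127 FPKM across the sham rats and at 1822, 1215 and 1062 FPKM across the MI/RI rats, a rise of 2.67 (SE 0.39, adjusted p = 0.0031, limma). Acadm, a dehydrogenase of fatty acid oxidation, rose by 2.40 (SE 0.41, adjusted p = 0.0042, limma). Pdk4, the kinase that holds back glucose oxidation and a standard reporter of PPARα activity, had a fold change of 0.42 (SE 0.41, adjusted p = 0.45, limma) with overlapping groups. Cd36 was not analysed here.

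Of 17 genes of mitochondrial DNA maintenance and expression past the filter, 6 (35.3%) were higher and 1 (5.88%) lower, against 25.5% and 7.36% of all genes tested, with a median of 0.40. Lrpprc, which stabilises mitochondrial mRNAs, rose by 1.95 (SE 0.36, adjusted p = 0.0052, limma), and Tefm, the elongation factor of mitochondrial transcription, by 1.51 (SE 0.37, adjusted p = 0.013, limma). Mterf1, which ends transcription after the ribosomal RNA genes, fell by 1.03 (SE 0.34, adjusted p = 0.040, limma), a call that was lost with no filter, with TPM, and without sham replicate 2, sham replicate 3, MI/RI replicate 2 or MI/RI replicate 3. The direct partners of Tfam at the promoter did not pass, with 0.31 for Polrmt, the polymerase (adjusted p = 0.41, limma), and 0.47 for Tfb2m (adjusted p = 0.22, limma). The MI/RI values of Tfb2m all lay above its sham values, while the groups overlapped in Polrmt.

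Of 24 other genes of fusion, fission and the inner membrane past the filter, 13 (54.2%, against 25.5% of all genes tested) were higher and 0 lower, with a median of 0.97. Mtfp1, an inner membrane protein tied to fission, rose by 2.80 (SE 0.46, adjusted p = 0.0037, limma) and Opa3 by 2.18 (SE 0.39, adjusted p = 0.0048, limma). Fis1 and Mff, 2 of the receptors that can recruit Drp1 to the outer membrane, differed in their calls. Fis1 was at 34.5, 26.4 and 22.3 FPKM across the sham rats and at 63.7, 55.4 and 55.3 FPKM across the MI/RI rats, and rose by 1.08 (SE 0.24, adjusted p = 0.0096, limma). Mff, at 0.43 (SE 0.23, adjusted p = 0.18, limma), did not pass, although its MI/RI values all lay above its sham values. The difference between Fis1 and Mff was not tested.

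**Figure D5:**
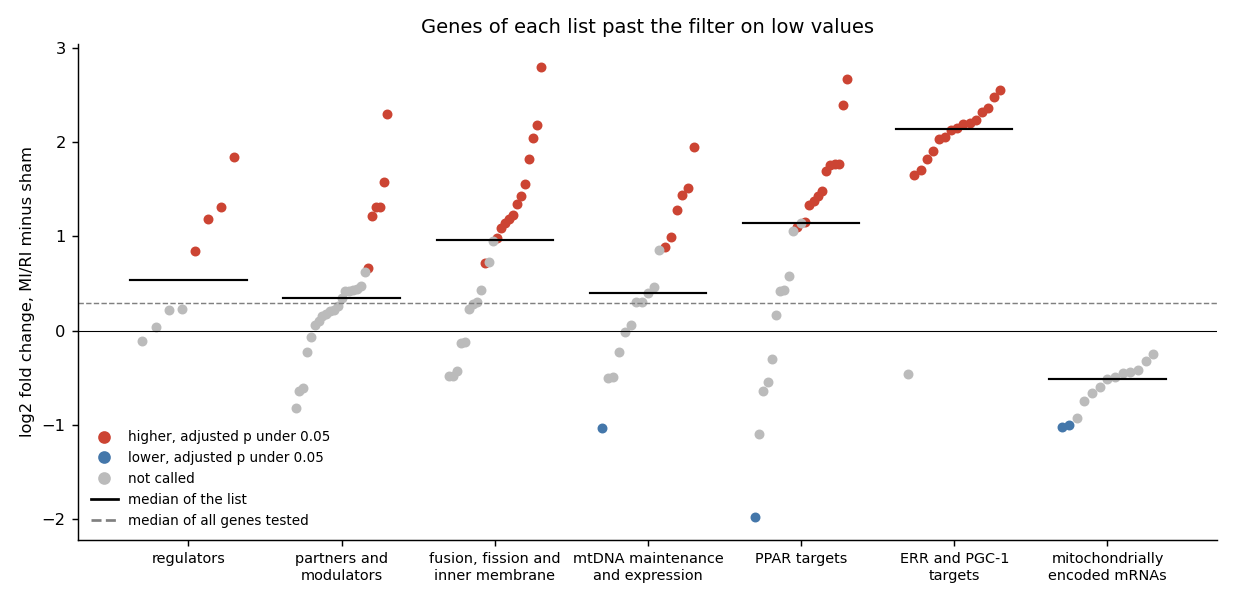
Log2 fold change (vertical axis, MI/RI minus sham) of every gene past the filter in the 10-gene set and in 6 lists of partners, targets and effectors, with a point for each gene. The targets of the estrogen-related receptors and PGC-1 lie highest, with a median of 2.14, and the 13 mitochondrially encoded mRNAs all lie under 0.

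Rescaling without the mitochondrially encoded mRNAs left 15 targets of the estrogen-related receptors and PGC-1 higher and 1 lower. It left 5 PPAR targets higher and 5 lower, 5 fusion and fission genes higher and 3 lower, 1 gene of mitochondrial DNA expression higher and 3 lower, and 2 partners higher and 4 lower. Of all 10942 genes, 793 were higher and 2857 lower on that scale. Centred on the cardiomyocyte markers, 0 genes of any of these 5 lists were higher, beside 35 of all 10942 genes. Lower on the marker scale were 1 target of the estrogen-related receptors and PGC-1, 13 PPAR targets and 15 fusion and fission genes. So were 13 genes of mitochondrial DNA expression and 20 partners, beside 8977 of all genes. No set test was made of any list.

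Markers of other cell types were read beside these results. Sums cover every marker found, also those under the filter on low values. Of 6 neutrophil and monocyte markers tested, 4 were higher. The sum of the 8 found was 61.9 to 71.2 FPKM in sham rats and 101 to 179 FPKM in MI/RI rats. Of 7 fibroblast markers, 1 was higher, with sums of 419 to 578 and 594 to 656 FPKM. Sums overlapped for the other lists: endothelial (0 of 7 called, 156 to 200 and 165 to 191 FPKM), smooth muscle and pericyte (1 higher and 2 lower of 6, 101 to 280 and 150 to 332 FPKM), pan-leukocyte (0 of 8 called, 64.9 to 87.7 and 73.0 to 74.8 FPKM), red cell (0 of 4 called, 1132 to 1263 and 606 to 1753 FPKM) and adipocyte (0 of 1 called, 9.12 to 11.6 and 5.89 to 13.3 FPKM). For comparison, 25.5% of all genes tested were called higher and 7.36% lower. No marker was at 0 in all samples. Their part in the levels of the 10 genes was not tested.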

How the data were processed

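RNA from the myocardium of 3 sham and 3 MI/RI rats had been made into stranded total RNA libraries. The authors deposited 1 table of FPKM values, already divided by gene length and library total. The submitters' processing notes name STAR and HTSeq. Their versions, the genome build and the annotation are not given in the sources used here. The values were whole fragments divided by whole lengths and 1 total per sample (within 0.001, for 19480 of 19481 genes with a value above 0), which gave the depth. Intervals from these fragments cover counting error only. The table had 30452 rows, 7092 of them without a symbol. Rows of the same symbol were added up.

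Log2(FPKM + 0.1) was compared for 10942 genes whose mean FPKM reached 0.5 with limma 3.58.1 in R 4.3.3 (intensity trend, Benjamini-Hochberg adjustment over all of them, threshold 0.05). The fit was also run on simulated data with independent noise and no shift common to all genes. That run cannot speak to the scaling of the samples. A two-sided exact permutation test stands beside the fit. The study's methods state no test for single genes of the sequencing data. The 10 genes, the lists and the tests were chosen with earlier results of these data known, and the lists follow general knowledge of the pathway. Genes named outside the 10 are Nrf1, Gabpa, Pprc1, Perm1, Fis1, Mff, Polrmt, Tfb2m and Pdk4, and up to 2 genes per list with the largest positive and negative fold changes among those past the threshold. One gene that the rule names is not reported here.

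The replicate numbers, from the sample titles, are shared by the groups. After subtracting the group means, samples of the same number correlated at 0.203, 0.117 and 0.118 over genes. No source says that the numbers mark a shared day, litter or batch, and sham replicate 3 correlated with MI/RI replicate 2 at 0.120. The main fit therefore did not pair the samples, and a block for the replicate number was fitted only as an alternative. The alternatives were other pseudocounts, filters, scalings and thresholds, a replicate block, a fit with no trend, leaving out single samples, and keeping the highest row of a symbol. voom on the recovered fragments was chosen after seeing the data. Promoters came from RefSeq (GRCr8) and were matched by symbol for 9 of the 10 genes. The other samples of the study were not analysed here.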

Additional observations from a re-analysis of the deposited data

How the results depend on the processing

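Ppargc1a stayed higher and past the threshold in every alternative that kept it (1.11 to 2.04; the filter at 5 FPKM dropped it), except centring on the cardiomyocyte markers. With the replicate block, 4 genes stayed higher, with adjusted p of 0.000755 for Ppargc1a, 0.0031 for Mfn2, 0.0045 for Opa1 and 0.023 for Tfam (limma), and the block changed no call among the 10 genes. voom on the recovered fragments also called 4, with 2929 genes higher and 857 lower in all. Of the 8 genes, 2 were higher with no filter, 1 after quantile normalization, 1 after rescaling without the mitochondrially encoded mRNAs, 0 (and 6 lower) when centred on the cardiomyocyte markers, and 1 at an adjusted p under 0.01 (limma). With no filter, the adjusted p was 0.061 for Mfn2 and 0.074 for Opa1, and with median centring it was 0.062 for Tfam (limma). Leaving out 1 sample gave 1 to 4 of the 8 genes, the fewest without sham replicate 2. It gave 1528 to 2557 genes higher in all, the fewest without sham replicate 3, and 309 to 881 lower, the fewest without sham replicates 2 (309) and 3 (359). As reported, 2790 genes were higher and 805 lower. The lower count was 166 with a mean FPKM of at least 5, 504 with TPM and 1554 with median centring. Higher and lower were 1441 and 1559 after quantile normalization, 793 and 2857 after rescaling, and 35 and 8977 on the cardiomyocyte markers. Of all calls, 77.6% were higher as reported, 87.3% with TPM, 91.9% at 5 FPKM, 56.5% with median centring, 48.0% after quantile normalization, 21.7% after rescaling and 0.388% on the cardiomyocyte markers. The median of all genes was 0.48, 0.04, −0.02, −0.46 and −2.01 with TPM, median centring, quantile normalization, rescaling and the cardiomyocyte markers. Quantile normalization left 9 targets of the estrogen-related receptors and PGC-1, 4 PPAR targets, 6 fusion and fission genes, 3 genes of mitochondrial DNA expression and 4 partners higher, and no filter left 13, 8, 9, 5 and 3. Leaving out 1 sample gave 12 to 15, 6 to 13, 8 to 13, 4 to 6 and 3 to 5 in the same order, and 0 to 6 mitochondrially encoded mRNAs lower. Of these mRNAs, 8 were lower under the filter at 5 FPKM and 13 on the cardiomyocyte markers.

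Fold changes of genes not called in the main fit moved as follows, most of them across 0. Ppara was at −0.0035 with a pseudocount of 1, −0.21 with median centring, −0.013 after quantile normalization, −0.68 after rescaling and −2.26 on the cardiomyocyte markers, and −0.35 to 0.35 with 1 sample left out. Ppargc1b was at 0.054 with TPM, −2.41 on the cardiomyocyte markers and −0.75 to 0.39 with 1 sample left out. Mfn1 was at −0.028, −0.42, −0.56 and −2.08 with median centring, quantile normalization, rescaling and the cardiomyocyte markers, and −0.022 to 0.42 with 1 sample left out. Dnm1l was at −0.022, −0.17, −0.54 and −2.07 in the same order. On the cardiomyocyte markers these genes were called lower, as were 8977 of all 10942 genes. The adjusted p was 0.0036 for Ppara, 0.0039 for Ppargc1b, 0.00036 for Mfn1 and 0.0011 for Dnm1l (limma). Of the genes called, Ppargc1a (−0.46), Tfam (−1.45), Mfn2 (−1.11) and Opa1 (−0.99) turned on the cardiomyocyte markers. The cause was not tested. Esrra and Esrrg rested on 5 to 59 fragments per sample.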
